A study of Homo sapiens with 12 samples.

Results

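Collagen genes were followed through blood formation from human embryonic stem cells. The members were all gene symbols of the form COL, a number, A and a number, which took 44 of the 56593 distinct symbols in the table and no symbol that stood on more than 1 line. The rule reads the symbol alone. By the protein each gene encodes, 11 are fibrillar collagens, 6 are basement membrane (type IV) collagens and 27 are other collagens.

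The study used RNA-seq on 12 libraries to ask how genes of mesenchymal cells change as H1 cells pass through mesoderm and endothelium to blood progenitors. H1 is a line of human embryonic stem cells, and no genetic change is given for any of the groups. The 4 populations had 3 libraries each. They were undifferentiated H1 cells (hESCs), APLNR+ cells collected on day 2 (mesoderm, MES), CD31+CD34+ cells on day 5 (hemogenic endothelial cells, HEPs) and CD43+ cells on day 8 (hematopoietic progenitor cells, HPCs). Per the labels, differentiation began with 40 ng/ml activin A and 50 ng/ml BMP4 for 2 days and went on with 40 ng/ml VEGF and 50 ng/ml bFGF for 6 days. These 6 days are also given for the CD31+CD34+ cells, which were collected on day 5 and so cannot have had all of them. The study's methods give the levels of activin A and BMP4 the other way round. By the same methods, the cells grew in a chemically defined medium on wells coated with Matrigel, an extract of mouse basement membrane proteins. These 12 libraries are limited as a model to a single line, and the labels do not say whether the 3 libraries of a population came from separate cultures. The study also examined mesenchymal genes in a line of human induced pluripotent stem cells, in a coculture system and in mouse and human embryos. Those data are not used here. The p-values then measure the spread between these libraries, which may be technical. In bulk populations, fewer cells of a type and less RNA per cell cannot be told apart.

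Collagens are extracellular proteins built from 3 polypeptide chains wound into a triple helix, each chain the product of its own gene. Fibrillar collagens assemble into banded fibers in connective tissue, and type IV collagen forms the mesh of the basement membrane on which endothelium and epithelium rest. Other collagens bind to fibrils, form beaded filaments or span the cell membrane. Chains are hydroxylated and folded in the endoplasmic reticulum by dedicated enzymes and chaperones before they are secreted.

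Marker genes of each label were present in its population, though not only there. Levels are given as FPKM, fragments per kilobase of transcript scaled to the number of mapped fragments, a unit that can be compared between genes because it is corrected for length. APLNR, the receptor gene that names the mesoderm population, lay between 359 and 402 FPKM in APLNR+ cells and at most 0.688 in H1 cells, but it was as high in CD31+CD34+ cells, between 381 and 429. PECAM1, which encodes CD31, averaged 55.2 FPKM in CD31+CD34+ cells and a higher 95.9 at the CD43+ stage, where CD34 averaged 22.2 against 47.7 before. The endothelial gene CDH5 lay between 79.1 and 108 FPKM in CD31+CD34+ cells and at most 0.279 before that stage. SPN, which encodes CD43, lay between 60.3 and 90.6 FPKM in CD43+ cells and at most 4.20 elsewhere. The 10 pluripotency markers summed to between 2602 and 2713 FPKM in H1 cells and between 183 and 213 in CD43+ cells. The 10 endothelial markers still summed to between 345 and 438 FPKM in CD43+ cells, against 546 to 699.7 in CD31+CD34+ cells, and the part of such RNA in the collagen levels of CD43+ cells was not tested. Replicate 1 was the shallowest library of each population, with an estimated depth from 0.555 to 0.747 of that of CD43+ replicate 3.

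In FPKM as deposited, collagen RNA was higher at the mesoderm stage, higher still in endothelium and lower again in blood progenitors. The summed level of the 44 genes (mean ± SD, n = 3) was 240.3 ± 32.0 FPKM in hESCs, 974 ± 123 in MES, 1450.0 ± 144 in HEPs and 564 ± 49.4 in HPCs. No library of any population overlapped with a library of another on this sum, as deposited or under upper quartile or median-of-ratios scaling. The FPKM of a library totalled between 567793 and 1564449, of which the small nucleolar RNA SNORD3A alone held from 0 to 51.6%. With libraries scaled to equal totals, the sum was 207, 152 and 139.7 FPKM in H1 libraries, 1595, 572 and 622 in APLNR+, 1077, 2409.8 and 2119 in CD31+CD34+ and 689, 885 and 798 in CD43+ libraries. On that scale APLNR+ libraries overlapped with those of CD31+CD34+ and CD43+ cells, and H1 libraries remained below all others. The classes took different courses. Fibrillar genes summed to 58.2, 49.8 and 47.0 FPKM in H1 libraries, 602, 540.3 and 489 in APLNR+, 653, 619 and 561 in CD31+CD34+ and 206, 222 and 197 in CD43+ libraries. They were already high in mesoderm, and the APLNR+ and CD31+CD34+ libraries overlapped. Type IV genes summed to 53.0, 44.5 and 42.2 FPKM in H1 libraries, 100.3, 93.1 and 85.4 in APLNR+, 466, 436 and 381 in CD31+CD34+ and 134, 157 and 130.5 in CD43+ libraries. They were highest in endothelium, with no overlap between any populations, also under each of the 3 scalings.

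The mixture of classes shifted with the stage. The fibrillar share of all collagen FPKM (mean ± SD, n = 3) was 21.5% ± 0.553 in hESCs, 56.0% ± 1.21 in MES, 42.2% ± 0.989 in HEPs and 36.9% ± 1.22 in HPCs. The type IV share ran the other way between mesoderm and endothelium. It was 19.4% ± 0.316, 9.58% ± 0.438, 29.5% ± 0.259 and 24.9% ± 1.11 in the same order. The leading gene changed at each stage: COL18A1 held 17.8% of the collagen FPKM in hESCs, COL5A2 held 29.9% in MES, COL1A2 held 17.3% in HEPs, and COL18A1 led again in HPCs with 18.3%. COL5A2 in APLNR+ cells stood at rank 206 and COL1A2 in CD31+CD34+ cells at rank 273 of 14840 genes by mean FPKM.

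**Figure D1:**
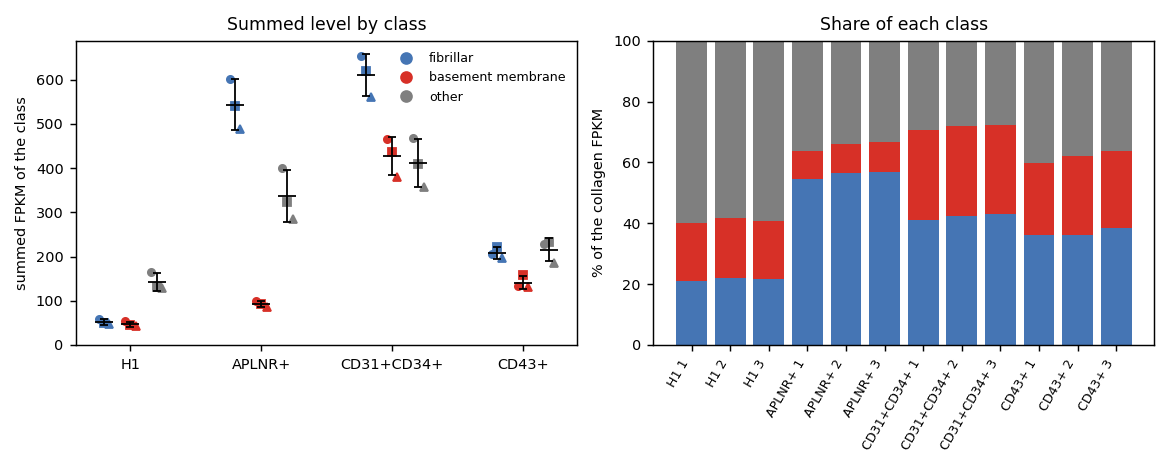
Left, summed FPKM of fibrillar, basement membrane and other collagen genes in each of the 12 libraries (symbols), with the mean (dash) and SD (bars) of 3 libraries. Right, the share of each class in the collagen FPKM of each library. Fibrillar genes make up 56.0% of the total in APLNR+ cells, and basement membrane genes 29.5% in CD31+CD34+ cells.

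Each step of differentiation was tested on log2(FPKM + 1) with limma, which was fitted to all 14840 genes that reached 1 FPKM in at least 3 libraries, with Benjamini-Hochberg adjustment over those genes. Every adjusted p below is from this fit, and a log2 value is a difference on this scale with its SE, which understates the change of genes near 1 FPKM. Means in FPKM are given with the SD of 3 libraries. A gene was called raised or lowered at an adjusted p under 0.05 with a change of at least 2-fold. Of the 44 collagen genes, 31 entered. They were 9 fibrillar, 4 basement membrane and 18 other genes.

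From H1 to APLNR+ cells, 12 of 44 collagen genes rose and 2 fell, which are 38.7% and 6.45% of the 31 in the fit. Over all genes tested, 8.3% rose and 7.62% fell. Of the fibrillar genes 4 of 11 rose, of the type IV genes 2 of 6, and of the others 6 of 27. The median log2 change of the 31 collagen genes was 0.75, and that of all genes was -0.12. From APLNR+ to CD31+CD34+ cells, 11 rose (35.5% of 31) and 5 fell (16.1%), beside 12.5% and 17.1% of all genes. The share that fell was thus near the background. The median was -0.08 for collagen genes and -0.01 for all genes. From CD31+CD34+ to CD43+ cells, 16 fell (51.6%) and 2 rose (6.45%), beside 8.79% and 5.58% of all genes, so that the share that rose was also near the background. The fallen genes were 6 of 11 fibrillar, 3 of 6 type IV and 7 of 27 other genes, and the median was -1.01 against -0.00 for all genes. Consecutive steps share a population, so a high value there enters both steps.

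Of the 31 genes, 7 entered only because of 1 population, with fewer than 3 libraries at 1 FPKM outside it. They were COL9A1, COL14A1 and COL21A1 through H1 cells, COL6A6 through APLNR+ cells, COL15A1 through CD31+CD34+ cells, COL24A1 through CD43+ cells, and COL22A1 through either H1 or APLNR+ cells. Entry in this way selects for a difference between populations, so these 7 are described by their levels with no test. Any calls of theirs within the counts over 31 genes are no evidence of a change. In a fit without such genes, 24 collagen genes and 12959 genes in all remained. At the first step 11 collagen genes rose (45.8% of 24) and none fell, beside 7.74% and 6.33% of all genes. At the second 10 rose (41.7%) and 4 fell (16.7%), beside 13.5% and 17.9%, and the median turned from -0.08 to 0.48, beside 0.01 for all genes. At the last 1 rose (4.17%) and 16 fell (66.7%), beside 4.78% and 9.37%.

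The ends of the course were compared as well. In CD43+ cells 13 collagen genes (41.9% of the 31 in the fit) were higher than in H1 cells and 6 (19.4%) lower, beside 14.6% and 22.5% of all genes. Without the 7 genes named above, 12 of 24 (50%) were higher and 4 (16.7%) lower, beside 14.5% and 22.4%. The 13 included 6 fibrillar and 3 type IV genes. Leaving out the minimum change of 2-fold or raising it to 4-fold moved several of these counts by over 1.5 times, from 12 to 19 or 7 for the rises at the first step and from 16 to 9 at 4-fold for the falls at the last. Over all 14840 genes, the same counts went from 1232 to 3376 or 382 and from 1305 to 268.

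**Figure D2:**
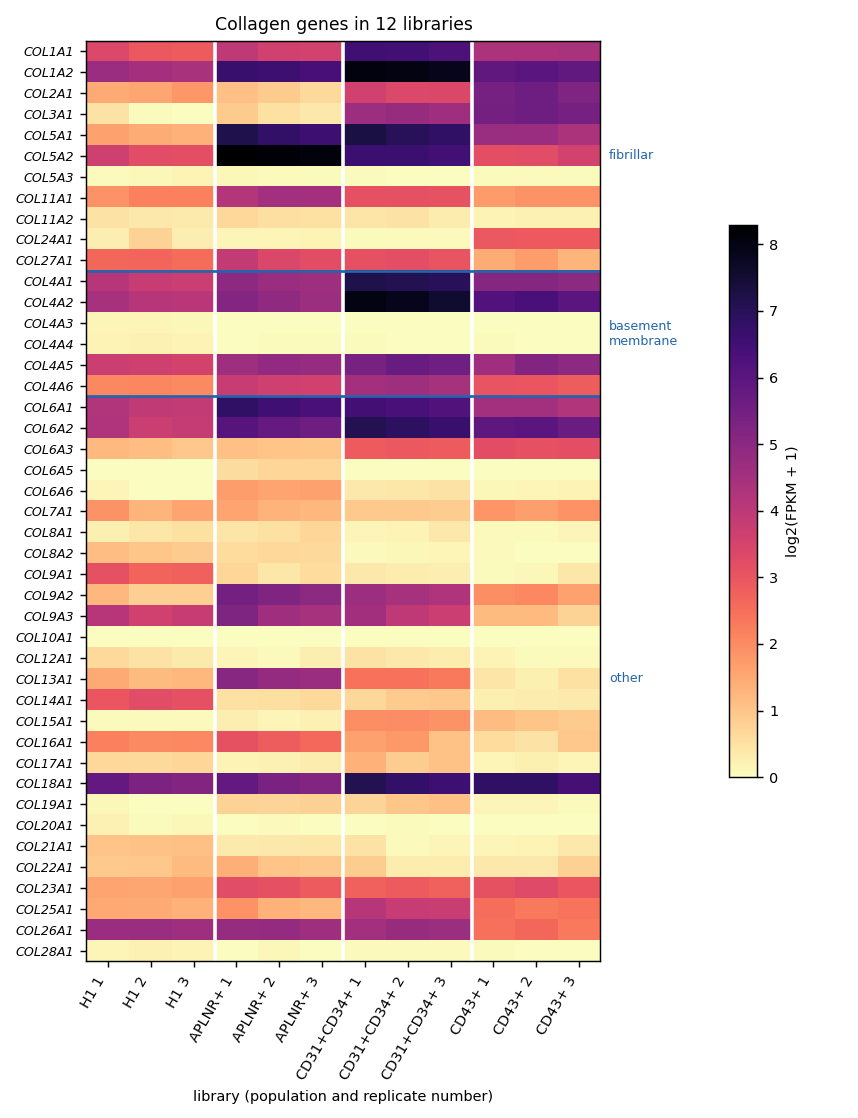
log2(FPKM + 1) of the 44 collagen genes (rows, grouped as fibrillar, basement membrane and other by blue lines) in 12 libraries (columns, population and replicate number, white lines between populations). COL5A2 is darkest in the 3 APLNR+ libraries, COL1A2 and COL4A2 in the 3 CD31+CD34+ libraries.

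Markers of stromal and mural cells did not move as 1 group. The 12 genes of this list summed to between 226 and 269.6 FPKM in hESCs, 539 and 649 in MES, 638 and 770.3 in HEPs, and 135 and 209.8 in HPCs. The members behind this sum took different courses. TAGLN averaged 76.4, 466, 274 and 15.7 FPKM in the order of the stages, and POSTN 0.730, 22.4, 0.828 and 0.185, both highest in mesoderm. RGS5 averaged 25.1, 51.3, 250.5 and 30.8 FPKM, highest in endothelium, and THY1 137, 22.0 and 145 in the first 3 stages and 49.9 to 93.0 in CD43+ libraries, lowest in mesoderm. ACTA2 averaged 0.922, 1.53, 13.3 and 34.8 FPKM and PDGFRB 3.12, 11.4, 13.2 and 17.5, both highest in CD43+ cells. DCN, a defining fibroblast gene, was listed at 0 in the H1 libraries and at 0.191 FPKM or less in the others. LUM was at most 3.01 FPKM in any library. The part of such cells in the collagen levels was not tested.

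Type V collagen had the largest rises of all collagen genes at mesoderm on the log2(FPKM + 1) scale. As ratios of mean FPKM, the order was COL5A1 (64.4), COL6A6 (52.1), COL9A2 (37.5) and COL5A2 (31.3), where COL6A6 and COL9A2 rested on H1 means under 1 FPKM. COL5A1 and COL5A2 encode chains of collagen V, a minor fibrillar collagen that starts and limits the width of collagen I fibers. COL5A2 had 11.6, 8.34 and 7.93 FPKM in H1 libraries, 312, 292 and 268 in APLNR+, 97.0, 97.8 and 89.8 in CD31+CD34+ and 8.02, 8.40 and 10.8 in CD43+ libraries. The 3 APLNR+ libraries were high, the 3 CD31+CD34+ libraries were intermediate, and H1 and CD43+ libraries overlapped at a low level. The gene rose at the first step (log2 4.84 ± 0.14, adjusted p = 5.6e-11), fell at the second (log2 -1.60 ± 0.14, adjusted p = 6.7e-07) and fell again at the third (log2 -3.26 ± 0.14, adjusted p = 3e-09). COL5A1 had 2.10, 1.73 and 1.56 FPKM in H1 libraries, 142, 109 and 96.0 in APLNR+, 152, 127 and 113 in CD31+CD34+ and 25.4, 24.6 and 19.3 in CD43+ libraries. Its APLNR+ and CD31+CD34+ libraries overlapped, and both lay above all H1 and CD43+ libraries. COL5A1 rose at the first step (log2 5.37 ± 0.16, adjusted p = 8e-11), did not pass the test at the second (log2 0.18 ± 0.16, adjusted p = 0.33) and fell at the third (log2 -2.45 ± 0.16, adjusted p = 1.2e-07). Against H1 cells, CD43+ cells kept a higher level of COL5A1 (log2 3.10 ± 0.16, adjusted p = 4.1e-09), whereas COL5A2 did not pass the test (log2 -0.02 ± 0.14, adjusted p = 0.89).

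Other genes that peaked in mesoderm were of several classes. COL11A1 encodes a fibrillar collagen of cartilage closely related to collagen V. It had 2.68, 3.52 and 3.52 FPKM in H1 libraries, 17.2, 22.2 and 21.2 in APLNR+, 7.70, 7.64 and 7.29 in CD31+CD34+ and 2.33, 2.66 and 2.74 in CD43+ libraries. The APLNR+ libraries were high and overlapped with no other population. COL11A1 rose at the first step (log2 2.32 ± 0.12, adjusted p = 7.9e-09) and fell at the second (log2 -1.30 ± 0.12, adjusted p = 8.7e-07) and the third (log2 -1.26 ± 0.12, adjusted p = 2.4e-06). COL13A1, which encodes a membrane-spanning collagen of cell adhesions, had 1.75, 1.25 and 1.39 FPKM in H1 libraries, 32.2, 27.0 and 24.4 in APLNR+, 4.46, 4.50 and 3.93 in CD31+CD34+ and 0.340, 0.179 and 0.401 in CD43+ libraries. The 4 populations did not overlap, and CD43+ cells were below H1 cells. It rose (log2 3.55 ± 0.12, adjusted p = 3e-10), fell (log2 -2.44 ± 0.12, adjusted p = 6.7e-09) and fell again (log2 -2.02 ± 0.12, adjusted p = 5.9e-08).

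The sequences upstream of 4 of the 12 collagen genes called raised at the first step are shown. No set rule chose these 4 genes, so they do not stand for all 12. Each sequence is the 120 bases just before 1 transcription start, 5′ to 3′ on the strand of the gene, from RefSeq on GRCh38.p14. For genes with several listed starts, such as COL5A1 with 2, only the first listed was used, here and in the counts below. Capitals mark motifs found by a search of both strands. The motifs were the TATA box, read as TATAAA, the CCAAT box, read as its 5 letters, the GC box, read as GGGCGG, and an E-box described below. None of these contains another, and a match on the opposite strand is shown as its reverse complement.
COL5A1 (chr9:134641683-134641802, plus strand): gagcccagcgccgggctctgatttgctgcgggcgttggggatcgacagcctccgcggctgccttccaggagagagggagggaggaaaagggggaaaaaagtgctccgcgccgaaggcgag
COL11A1 (chr1:103108523-103108642, minus strand): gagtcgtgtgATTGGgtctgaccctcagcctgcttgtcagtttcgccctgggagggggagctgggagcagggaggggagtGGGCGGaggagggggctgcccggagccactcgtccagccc
COL13A1 (chr10:69801786-69801905, plus strand): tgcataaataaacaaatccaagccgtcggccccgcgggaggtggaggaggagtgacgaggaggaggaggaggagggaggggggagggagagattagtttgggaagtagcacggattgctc
COL6A2 (chr21:46097992-46098111, plus strand): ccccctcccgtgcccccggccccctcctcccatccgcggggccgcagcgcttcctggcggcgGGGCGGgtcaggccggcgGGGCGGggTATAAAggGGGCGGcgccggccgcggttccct
COL11A1 held a CCAAT box and a GC box, COL6A2 a TATA box and several GC boxes, and COL5A1 and COL13A1 none of these motifs in this stretch. Farther upstream, within 250 bases of the start, COL5A1 held a GC box and COL13A1 a TATA box. RefSeq windows were matched for 32 of the 44 collagen genes. In the 250 bases before the start, TATAAA stood in 5 of 32 (15.6%) beside 11.1% of 27305 genes, CCAAT in 9 (28.1%) beside 33%, and GGGCGG in 18 (56.2%) beside 42.3%. The E-box, read as CAGGTG, is a motif that the transcription factor SNAI1 is known to bind, and stood in 5 (15.6%) beside 17.5%. These 5 were COL4A3, COL4A4, COL8A2, COL9A2 and COL16A1, of which COL9A2 was called raised at the first step. The median GC content was 65.2% in the collagen windows and 58.0% in all windows.

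The chains of type IX collagen took different courses. Its COL9A1, COL9A2 and COL9A3 chains make a collagen that decorates cartilage fibrils. COL9A1 had 7.75, 5.54 and 5.81 FPKM in H1 libraries, 0.626, 0.314 and 0.528 in APLNR+, 0.297, 0.227 and 0.216 in CD31+CD34+ and 0.0429, 0.0765 and 0.324 in CD43+ libraries, so only the H1 libraries reached 1 FPKM. COL9A2 had 1.40, 0.756 and 0.769 FPKM in H1 libraries, 42.7, 36.6 and 30.2 in APLNR+, 24.1, 21.0 and 18.0 in CD31+CD34+ and 2.89, 3.20 and 2.13 in CD43+ libraries. Its APLNR+ libraries were the highest, and no populations overlapped. COL9A2 rose at the first step (log2 4.25 ± 0.17, adjusted p = 1e-09) and fell at the last (log2 -2.56 ± 0.17, adjusted p = 1.3e-07). COL9A3 had 16.4, 11.2 and 13.0 FPKM in H1 libraries, 37.2, 23.2 and 20.8 in APLNR+, 22.3, 14.7 and 12.5 in CD31+CD34+ and 1.27, 1.27 and 0.679 in CD43+ libraries. Its APLNR+ and CD31+CD34+ libraries overlapped, as did H1 and CD31+CD34+ libraries, and CD43+ libraries were lowest. COL9A3 was close to 2-fold at the first step (log2 0.92 ± 0.24, adjusted p = 0.0064), passed it under each of 3 scalings (1.02 to 1.08), and fell at the last (log2 -3.05 ± 0.24, adjusted p = 6.2e-07). The ratio of COL9A2 to COL9A3 FPKM was 0.0850, 0.0672 and 0.0592 in H1 libraries and 1.15, 1.57 and 1.45 in APLNR+ libraries.

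Type I collagen, the main fibrillar collagen of connective tissue, peaked in endothelium. COL1A1 had 9.25, 6.63 and 6.23 FPKM in H1 libraries, 14.8, 11.3 and 10.9 in APLNR+, 90.5, 88.9 and 75.7 in CD31+CD34+ and 18.9, 18.9 and 19.8 in CD43+ libraries. The CD31+CD34+ libraries were far above the rest, and no populations overlapped. COL1A1 did not reach 2-fold at mesoderm (log2 0.68 ± 0.14, adjusted p = 0.0015), rose at the endothelial step (log2 2.69 ± 0.14, adjusted p = 1.1e-08) and fell at the last (log2 -2.09 ± 0.14, adjusted p = 1.7e-07). COL1A2, its partner chain, had 24.4, 21.2 and 20.0 FPKM in H1 libraries, 99.4, 95.0 and 83.2 in APLNR+, 262, 255 and 235 in CD31+CD34+ and 58.3, 63.8 and 56.6 in CD43+ libraries. It rose at both the mesoderm (log2 2.03 ± 0.10, adjusted p = 6.2e-09) and endothelial steps (log2 1.43 ± 0.10, adjusted p = 1e-07) and fell in CD43+ cells (log2 -2.06 ± 0.10, adjusted p = 8.6e-09). Both genes stayed above H1 cells in CD43+ cells (1.29 and 1.41 on the log2 scale, both called).

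Among the fibrillar genes over 10 FPKM, COL3A1 and COL2A1 were those that peaked in CD43+ cells. COL3A1 encodes the collagen of vessel walls and soft tissue. It had 0.385, 0.0274 and 0.00887 FPKM in H1 libraries, 0.835, 0.420 and 0.305 in APLNR+, 24.0, 25.7 and 23.0 in CD31+CD34+ and 42.7, 47.4 and 42.4 in CD43+ libraries. The H1 and APLNR+ libraries overlapped below 1 FPKM, the CD31+CD34+ libraries were higher, and the CD43+ libraries were highest. It rose at the endothelial step (log2 4.07 ± 0.15, adjusted p = 4.4e-10) and did not reach 2-fold at the last (log2 0.84 ± 0.15, adjusted p = 0.00048). COL2A1, the main collagen of cartilage, had 1.81, 1.93 and 2.44 FPKM in H1 libraries, 1.13, 0.843 and 0.565 in APLNR+, 11.3, 9.19 and 9.44 in CD31+CD34+ and 41.5, 46.8 and 37.0 in CD43+ libraries. It did not reach 2-fold at mesoderm (log2 -0.73 ± 0.14, adjusted p = 0.00069) except with a pseudocount of 0.1 (-1.22), rose at the endothelial step (log2 2.58 ± 0.14, adjusted p = 1.1e-08) and rose again in CD43+ cells (log2 1.96 ± 0.14, adjusted p = 2.1e-07), with no overlap between populations. COL24A1, a fibrillar collagen of bone and eye development, joined it. It had 6.68, 6.51 and 6.45 FPKM in CD43+ libraries and at most 0.682 elsewhere, the level through which it entered the fit. The 10 blood marker genes summed to 2389 to 2945 FPKM in these CD43+ libraries, and the part of blood cells in these collagen levels was not tested.

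COL27A1, which encodes a fibrillar collagen of growing cartilage, had 5.29, 5.34 and 4.77 FPKM in H1 libraries, 13.5, 9.42 and 8.19 in APLNR+, 7.81, 7.91 and 7.09 in CD31+CD34+ and 1.70, 2.21 and 1.44 in CD43+ libraries. It passed neither the first step (log2 0.87 ± 0.16, adjusted p = 0.00052) nor the second (log2 -0.38 ± 0.16, adjusted p = 0.046) at 2-fold and fell at the last (log2 -1.64 ± 0.16, adjusted p = 3.1e-06). The remaining fibrillar genes, COL5A3 and COL11A2, did not enter the fit.

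**Figure D3:**
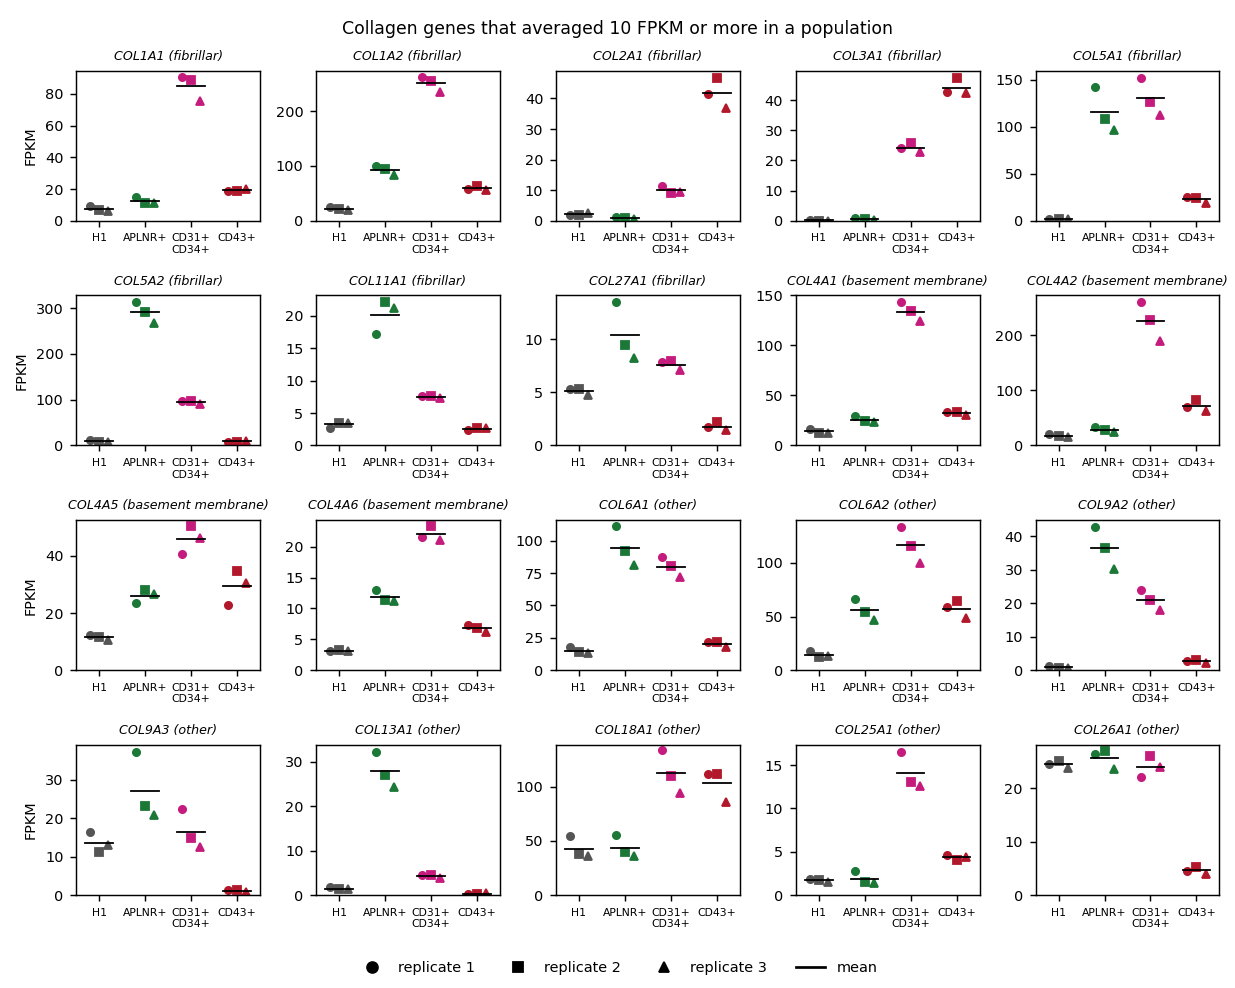
FPKM (linear axes from 0) of the 20 collagen genes that averaged at least 10 FPKM in a population, by population, with a symbol for each replicate and a line at the mean. COL5A2, COL11A1 and COL13A1 are highest in APLNR+ cells, COL1A1, COL4A1 and COL4A2 in CD31+CD34+ cells, and COL2A1 and COL3A1 in CD43+ cells.

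Type IV collagen had a common endothelial peak in its 4 measured chains. COL4A1 and COL4A2 encode the chains of the collagen IV found in nearly all basement membranes. COL4A1 had 16.6, 12.9 and 12.5 FPKM in H1 libraries, 29.6, 24.8 and 23.5 in APLNR+, 143, 134 and 124 in CD31+CD34+ and 33.3, 33.3 and 30.7 in CD43+ libraries. COL4A2 had 20.5, 16.5 and 15.7 FPKM in H1 libraries, 34.3, 28.8 and 24.0 in APLNR+, 260.4, 228 and 189 in CD31+CD34+ and 70.8, 82.2 and 63.2 in CD43+ libraries. In both, the CD31+CD34+ libraries were far above the others and no populations overlapped. COL4A1 did not reach 2-fold at mesoderm (log2 0.85 ± 0.12, adjusted p = 6.5e-05) except under quantile scaling (1.01), rose at the endothelial step (log2 2.33 ± 0.12, adjusted p = 6.8e-09) and fell at the last (log2 -2.01 ± 0.12, adjusted p = 4.1e-08). COL4A2 followed the same course (log2 0.69 ± 0.16, adjusted p = 0.0029, then log2 2.92 ± 0.16, adjusted p = 1.3e-08, then log2 -1.63 ± 0.16, adjusted p = 3.8e-06). In CD43+ cells both were above H1 cells, by 1.17 and 1.98 on the log2 scale (both called).

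These genes stand head to head on chromosome 13, with starts 127 bases apart. The 126 bases between the starts are shown because this stretch lies upstream of both members of the pair that moved together. They are given on the strand of COL4A2, from RefSeq on GRCh38.p14, with the CCAAT and GGGCGG motifs in capitals.
COL4A1 and COL4A2 (chr13:110307158-110307283, plus strand): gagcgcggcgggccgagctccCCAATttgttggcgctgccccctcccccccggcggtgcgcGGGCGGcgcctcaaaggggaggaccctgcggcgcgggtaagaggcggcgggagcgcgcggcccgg
The level of the pair was not equal. The ratio of COL4A1 to COL4A2 FPKM was 0.806, 0.785 and 0.794 in H1 libraries, 0.863, 0.861 and 0.982 in APLNR+, 0.551, 0.588 and 0.657 in CD31+CD34+ and 0.471, 0.405 and 0.486 in CD43+ libraries. No populations overlapped on this ratio, which was lowest in CD43+ cells.

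COL4A5 and COL4A6 are another head-to-head pair, on chromosome X, and encode chains of more specialized basement membranes such as that of the kidney. Their starts were 380 bases apart, by the first of 2 starts listed for COL4A6. COL4A5 had 12.5, 11.6 and 10.7 FPKM in H1 libraries, 23.5, 28.1 and 26.7 in APLNR+, 40.6, 50.5 and 46.4 in CD31+CD34+ and 22.9, 34.7 and 30.4 in CD43+ libraries. COL4A6 had 3.18, 3.26 and 3.05 FPKM in H1 libraries, 12.9, 11.4 and 11.2 in APLNR+, 21.5, 23.3 and 21.1 in CD31+CD34+ and 7.25, 6.90 and 6.17 in CD43+ libraries. Both were lowest in H1 cells and highest in CD31+CD34+ cells. COL4A5 (log2 1.11 ± 0.14, adjusted p = 3.3e-05) and COL4A6 (log2 1.62 ± 0.09, adjusted p = 1.9e-08) rose at mesoderm, a step at which COL4A1 and COL4A2 missed 2-fold. At the endothelial step neither reached 2-fold (0.79 and 0.84 on the log2 scale). In CD43+ cells COL4A6 fell (log2 -1.56 ± 0.09, adjusted p = 3.7e-08), and COL4A5 did not reach 2-fold (log2 -0.64 ± 0.14, adjusted p = 0.0023). Their ratio was 1.82, 2.46 and 2.39 in APLNR+ libraries and 3.16, 5.04 and 4.92 in CD43+ libraries. The remaining pair, COL4A3 and COL4A4, did not enter the fit.

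Type VI collagen, which forms beaded filaments around cells, was led by COL6A1 and COL6A2. COL6A1 had 17.8, 14.2 and 13.5 FPKM in H1 libraries, 111, 91.8 and 81.4 in APLNR+, 87.2, 80.7 and 71.7 in CD31+CD34+ and 21.8, 21.7 and 17.8 in CD43+ libraries. COL6A2 had 18.2, 12.5 and 13.2 FPKM in H1 libraries, 66.5, 54.2 and 47.2 in APLNR+, 134, 116 and 100.2 in CD31+CD34+ and 58.7, 64.0 and 49.1 in CD43+ libraries. COL6A1 was on a plateau over APLNR+ and CD31+CD34+ libraries, which overlapped, and COL6A2 peaked in CD31+CD34+ cells. COL6A1 rose at mesoderm (log2 2.56 ± 0.14, adjusted p = 1.5e-08), did not pass the test at the endothelial step (log2 -0.24 ± 0.14, adjusted p = 0.14) and fell at the last (log2 -1.92 ± 0.14, adjusted p = 2.7e-07). COL6A2 rose at mesoderm (log2 1.87 ± 0.17, adjusted p = 1.6e-06). Its further rise in endothelium (log2 1.05 ± 0.17, adjusted p = 0.00013) and its fall in CD43+ cells (log2 -1.01 ± 0.17, adjusted p = 0.00032) lay close to the 2-fold limit and fell short of it when CD31+CD34+ replicate 1 was left out (0.95 and -0.91) and under quantile scaling (0.82 and -0.94). COL6A3, the large chain of the usual trimer, stood at 1.13, 1.05 and 0.961 FPKM in APLNR+ libraries and 6.37, 6.55 and 6.23 in CD31+CD34+ libraries. It rose at that step (log2 1.85 ± 0.09, adjusted p = 5.2e-09). COL6A3 was far below its partners, at 0.0102, 0.0114 and 0.0118 of the COL6A1 level in APLNR+ libraries and 0.377, 0.354 and 0.449 in CD43+ libraries. COL6A6 had 2.24, 1.97 and 2.11 FPKM in APLNR+ libraries, through which it entered the fit, and at most 0.398 in any other.

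**Figure D4:**
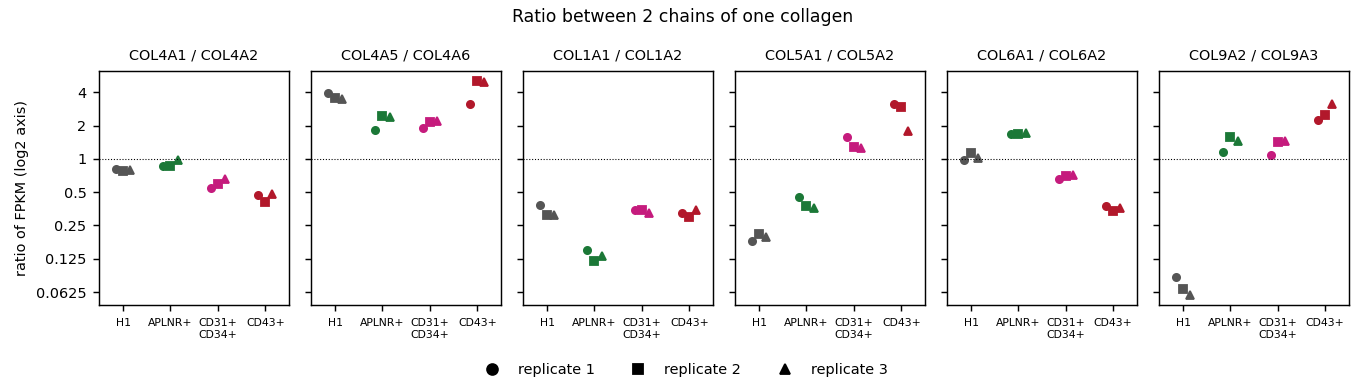
Ratio of FPKM between paired chains in each library (log axis of base 2, dotted line at a ratio of 1), by population and replicate. COL4A1 over COL4A2 lies between 0.785 and 0.806 in H1 libraries and between 0.405 and 0.486 in CD43+ libraries, and COL5A1 over COL5A2 is above 1 only in CD31+CD34+ and CD43+ libraries.

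The balance of chains also moved in the fibrillar types. COL5A1 stood at 0.181, 0.208 and 0.196 of the COL5A2 level in H1 libraries, 0.456, 0.373 and 0.358 in APLNR+ libraries, 1.57, 1.29 and 1.25 in CD31+CD34+ libraries and 3.16, 2.93 and 1.78 in CD43+ libraries. The 4 populations did not overlap. COL1A1 stood at 0.149, 0.119 and 0.132 of the COL1A2 level in APLNR+ libraries and between 0.296 and 0.379 of it in the other 9 libraries. These ratios are descriptions with no test. COL3A1 and COL5A2 lie tail to tail on chromosome 2 and took different courses: COL3A1 stood at 0.00267, 0.00144 and 0.00114 of the COL5A2 level in APLNR+ libraries and 5.32, 5.65 and 3.91 in CD43+ libraries.

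Multiplexins are vascular and epithelial basement membrane collagens, and COL18A1 is the source of the endostatin fragment. COL18A1 had 54.8, 38.1 and 35.7 FPKM in H1 libraries, 55.9, 39.3 and 35.7 in APLNR+, 134, 109.8 and 94.3 in CD31+CD34+ and 112, 112 and 85.8 in CD43+ libraries. It was well expressed at every stage, its H1 and APLNR+ libraries overlapped, and so did its CD31+CD34+ and CD43+ libraries. The gene rose at the endothelial step (log2 1.36 ± 0.20, adjusted p = 7.1e-05) and passed the test neither before (log2 0.02 ± 0.20, adjusted p = 0.93) nor after it (log2 -0.12 ± 0.20, adjusted p = 0.65). Replicate 1 was the highest library of COL18A1 in H1, APLNR+ and CD31+CD34+ cells. COL15A1 had 0.204, 0.0953 and 0.149 FPKM in APLNR+ libraries and 2.86, 2.97 and 2.62 in CD31+CD34+ libraries, through which it entered the fit, and 1.23, 1.02 and 0.870 in CD43+ libraries.

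Among the membrane-spanning collagens besides COL13A1, COL25A1 was an endothelial gene in these libraries. COL25A1, known from amyloid plaques and motor nerve growth, had 1.85, 1.79 and 1.53 FPKM in H1 libraries, 2.72, 1.54 and 1.39 in APLNR+, 16.6, 13.0 and 12.5 in CD31+CD34+ and 4.65, 4.02 and 4.35 in CD43+ libraries. The CD31+CD34+ libraries were highest, and H1 and APLNR+ libraries overlapped. It rose at the endothelial step (log2 2.40 ± 0.16, adjusted p = 7e-08) and fell at the last (log2 -1.48 ± 0.16, adjusted p = 9.1e-06). COL23A1 rose at mesoderm from a mean of 2.00 to 7.44 FPKM (log2 1.49 ± 0.11, adjusted p = 3.1e-07) and then missed 2-fold at both later steps (-0.26 and 0.31 on the log2 scale).

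COL26A1 was level until the last step. It had 24.4, 25.1 and 23.8 FPKM in H1 libraries, 26.3, 26.9 and 23.6 in APLNR+, 22.0, 25.9 and 24.0 in CD31+CD34+ and 4.56, 5.29 and 3.96 in CD43+ libraries. The libraries of the first 3 populations overlapped, and all CD43+ libraries lay below them. COL26A1 passed the test at neither of the first steps (log2 0.06 ± 0.10, adjusted p = 0.63, then log2 -0.09 ± 0.10, adjusted p = 0.43) and fell at the last (log2 -2.16 ± 0.10, adjusted p = 7.2e-09).

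Both collagen genes counted as fallen at mesoderm were fibril-associated. Both entered the fit through H1 cells alone, so their calls are not a test. COL14A1 had 7.01, 8.42 and 7.64 FPKM in H1 libraries and at most 0.941 in any other. COL9A1, described above, was the other. Either gene drops out of the fit once any H1 library is left out, because it then reaches 1 FPKM in fewer than 3 libraries, so that the count of falls at this step went from 2 to 0. COL16A1, another fibril-associated gene, was highest in APLNR+ cells at 6.24 ± 1.26 FPKM (SD, n = 3) and fell at the endothelial step to 1.83 ± 0.673 (log2 -1.37 ± 0.19, adjusted p = 3.6e-05). COL7A1 of the anchoring fibrils passed no consecutive step at 2-fold and averaged at most 2.50 FPKM. COL21A1 averaged at most 1.07 FPKM and COL22A1 at most 1.19.

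The 13 genes that did not enter were COL4A3, COL4A4, COL5A3, COL6A5, COL8A1, COL8A2, COL10A1, COL11A2, COL12A1, COL17A1, COL19A1, COL20A1 and COL28A1. No library of any of them exceeded 1.57 FPKM, a value of COL17A1. Of the 44 genes, 7 were listed at 0 in at least 1 library, and none of these entered. Antisense genes are listed for COL4A2, COL5A1 and COL18A1, and none exceeded 0.0135 FPKM.

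**Figure D5:**
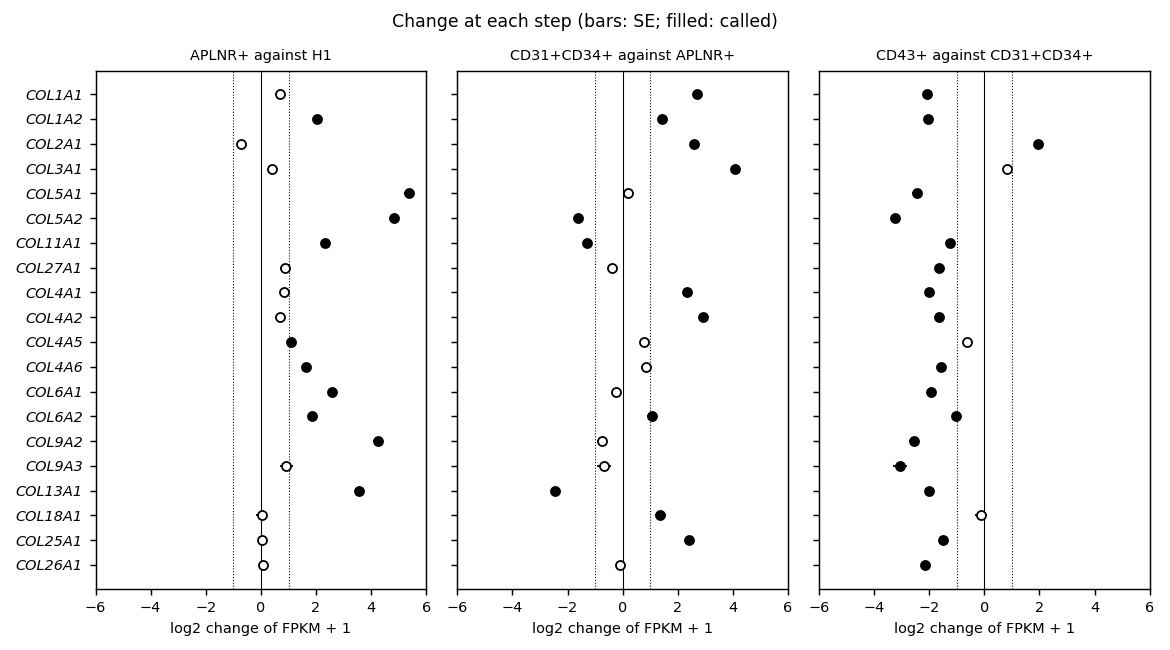
log2 change of FPKM + 1 (limma estimate, bars are SE) of the 20 collagen genes over 10 FPKM at each consecutive step. Filled points are called, open points are not, and dotted lines mark 2-fold. Points lie mainly to the right at the first step and to the left at the last, where COL2A1 is the only filled point to the right.

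Proteins that modify and fold collagen were taken as a list of 39 genes, of which 38 are in the table and 31 entered the fit. At mesoderm 6 rose (19.4% of the 31, beside 8.3% of all genes) and none fell (7.62% of all genes). At the endothelial step 16 rose (51.6%, beside 12.5%) and 5 fell (16.1%, near the 17.1% of all genes). In CD43+ cells none rose (5.58% of all genes) and 7 fell (22.6%, beside 8.79%). The median log2 change of the fitted genes was 0.40, 1.01 and -0.73 at these steps, beside -0.12, -0.01 and -0.00 for all genes. Against H1 cells, 11 of the 31 were higher in CD43+ cells (35.5%, beside 14.6% of all genes) and 4 lower (12.9%, beside 22.5%). SERPINH1 encodes HSP47, the collagen-specific chaperone of the endoplasmic reticulum. It had 200.0, 189 and 181 FPKM in H1 libraries, 266, 277 and 255 in APLNR+, 792, 841 and 770.2 in CD31+CD34+ and 248, 262 and 221 in CD43+ libraries. The CD31+CD34+ libraries were the highest, as for COL1A1 and COL4A1. It did not reach 2-fold at mesoderm (log2 0.49 ± 0.09, adjusted p = 0.00049), rose in endothelium (log2 1.59 ± 0.09, adjusted p = 1.4e-08) and fell in CD43+ cells (log2 -1.71 ± 0.09, adjusted p = 1.4e-08). PXDN, the peroxidase that crosslinks collagen IV, rose from 32.7 ± 3.86 to 105 ± 15.8 FPKM at the endothelial step (SD, n = 3, log2 1.65 ± 0.14, adjusted p = 6.5e-07) and fell to 48.2 ± 8.37 in CD43+ cells (log2 -1.12 ± 0.14, adjusted p = 3.9e-05).

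Other enzymes of the list peaked in mesoderm instead, as COL5A2 did. PLOD2, a lysyl hydroxylase of collagen telopeptides, rose from 5.53 ± 1.18 to 29.6 ± 8.79 FPKM at mesoderm (log2 2.20 ± 0.25, adjusted p = 1.1e-05) and fell to 4.46 ± 1.51 in endothelium (log2 -2.48 ± 0.25, adjusted p = 2.3e-06). P3H2, a prolyl 3-hydroxylase that acts on collagen IV, rose from 4.23 ± 0.976 to 108 ± 24.9 FPKM (log2 4.37 ± 0.22, adjusted p = 7.3e-09) and fell to 22.6 ± 6.00 (log2 -2.22 ± 0.22, adjusted p = 1.9e-06). P4HA1, a catalytic subunit of prolyl 4-hydroxylase, fell at the endothelial step from 23.8 ± 2.55 to 4.84 ± 0.998 FPKM (log2 -2.10 ± 0.13, adjusted p = 3.8e-08), a step at which its partner P4HB and the collagen genes COL1A1 and COL4A2 rose. P4HA2, another such subunit, averaged 7.11 FPKM in APLNR+ cells and 13.3 in CD31+CD34+ cells, a rise that was not called. LOX, a crosslinking enzyme, did not enter the fit and averaged at most 0.776 FPKM. Its relatives LOXL1, LOXL2 and LOXL3 were called raised at the endothelial step. Their means went from 2.49, 10.7 and 6.00 FPKM in APLNR+ cells to 21.2, 40.7 and 22.9 in CD31+CD34+ cells. LOXL4 did not enter the fit. CRTAP and FKBP10 were highest in CD43+ cells. In the order of the stages, CRTAP averaged 35.2, 38.4, 78.4 and 111 FPKM, and FKBP10 59.2, 55.3, 132 and 154.5. Both were called raised at the endothelial step and in CD43+ against H1 cells, and neither was called at the last step.

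Partners of collagen IV in the basement membrane were a list of 13 genes, of which 11 entered. LAMA2 entered only through APLNR+ cells and was called at no step. In the fit without such genes, 10 remained. Of these, 20% rose at mesoderm, 30% rose at the endothelial step and 30% fell in CD43+ cells. The shares of all genes in that fit were 7.74%, 13.5% and 9.37%. At mesoderm 2 rose (18.2% of the 11, beside 8.3% of all genes) and none fell. In CD43+ cells none rose and 3 fell (27.3%, beside 8.79%). The median log2 change of the 11 was 0.68, 0.75 and -0.63 at the 3 steps, beside -0.12, -0.01 and -0.00 for all genes. Without LAMA2 it was 0.68, 0.83 and -0.71. Against H1 cells, 6 of the 11 were higher in CD43+ cells (54.5%, beside 14.6% of all genes) and 1 lower (9.09%, beside 22.5%). At the endothelial step 3 rose (27.3%, beside 12.5%) and none fell: HSPG2 (perlecan, log2 2.00 ± 0.11, adjusted p = 2e-08), NID1 (log2 1.86 ± 0.11, adjusted p = 3.1e-08) and NID2 (log2 2.72 ± 0.13, adjusted p = 5.5e-09), the nidogens that link laminin to collagen IV. The laminin gene LAMC1 averaged 43.4 FPKM in APLNR+ cells and 73.6 in CD31+CD34+ cells and missed 2-fold (0.75 on the log2 scale). SPARC, a collagen-binding protein, rose already at mesoderm, from 56.9 ± 8.32 to 306 ± 40.1 FPKM (log2 2.41 ± 0.17, adjusted p = 1.8e-07), and fell in CD43+ cells to 112 ± 23.1 (log2 -1.38 ± 0.17, adjusted p = 3e-05).

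Collagen receptors were a list of 10 genes, of which 7 entered. At mesoderm 2 rose (28.6% of the 7, beside 8.3% of all genes) and none fell. At the endothelial step 1 rose (14.3%, near the 12.5% of all genes) and 3 fell (42.9%, beside 17.1%), and in CD43+ cells 1 rose (14.3%, beside 5.58%) and 4 fell (57.1%, beside 8.79%). The median log2 change was 0.21, -0.22 and -1.23, beside the same medians of all genes. Against H1 cells, 2 of the 7 were higher in CD43+ cells (28.6%, beside 14.6% of all genes) and 2 lower (28.6%, beside 22.5%). DDR1, a receptor tyrosine kinase for collagen, had 38.0, 35.0 and 33.7 FPKM in H1 libraries, 43.3, 38.8 and 34.0 in APLNR+, 13.7, 17.1 and 15.7 in CD31+CD34+ and 3.21, 2.82 and 5.28 in CD43+ libraries. The H1 and APLNR+ libraries overlapped and were high, and CD43+ libraries were lowest. DDR1 fell at the endothelial step (log2 -1.27 ± 0.17, adjusted p = 2.4e-05) and in CD43+ cells (log2 -1.82 ± 0.17, adjusted p = 2.2e-06). DDR2, which binds fibrillar collagen, rose at mesoderm from 0.380 ± 0.156 to 4.34 ± 0.477 FPKM (log2 1.96 ± 0.15, adjusted p = 3.3e-07) and fell in endothelium (log2 -1.28 ± 0.15, adjusted p = 8.4e-06). MRC2, an endocytic collagen receptor, averaged 5.09, 34.2, 67.1 and 22.2 FPKM in the order of the stages and fell in CD43+ cells (log2 -1.56 ± 0.13, adjusted p = 9.7e-07). ITGB1, the beta chain shared by the collagen-binding integrins, fell from 81.7 ± 10.7 to 34.2 ± 3.80 FPKM at the last step (log2 -1.23 ± 0.12, adjusted p = 4.5e-06). The integrin genes ITGA10 and ITGA1 were those called raised at the later steps. ITGA10 averaged 0.0508, 0.214, 10.9 and 3.05 FPKM in the order of the stages, raised at the endothelial step and lowered at the last. ITGA1 averaged 2.85, 5.12, 1.28 and 3.82 FPKM, lowered at the endothelial step and raised at the last. The blood cell receptors LAIR1 and GP6 did not enter the fit. LAIR1 had 0.612, 0.787 and 0.763 FPKM in CD43+ libraries and at most 0.0285 elsewhere.

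Libraries of a population differed among themselves. Among the 31 collagen genes in the fit, replicate 1 was the highest library for 64.5% in hESCs, 80.6% in MES, 51.6% in HEPs and 25.8% in HPCs, beside 38.9%, 29.2%, 24.2% and 17.7% of all genes tested. Replicate 1 was also the shallowest library, and the part of depth in these levels was not tested. With replicate 1 of each population left out, 11 collagen genes rose at the first step, 11 at the second, and 15 fell at the last. Over the 13581 genes of that fit, these counts were 1092, 1934 and 1262.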

How the data were processed

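RNA-seq libraries of H1 cells and of APLNR+, CD31+CD34+ and CD43+ cells derived from them were used, 3 per population, grouped by sample title. Per the labels, RNA was extracted with Trizol and libraries were made with an Illumina TruSeq kit. Values were deposited by the authors as 1 table of FPKM by gene symbol. The submitters' processing notes name BWA, Bowtie, RSEM and hg19, without saying which program made the values. Any scaling between libraries and the use of strand are not given in the sources used here. FPKM are not counts, so no count model was run and no counting interval is given. The precision is limited by 3 libraries per population. Zeros in the table may be estimates that failed, since EEF1A1, a gene of every cell, is listed at 0 in 6 libraries.

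The table had 58365 numeric lines and 56593 symbols. For 345 symbols found on several lines, the line of highest mean was used. log2(FPKM + 1) of genes at 1 FPKM or more in at least 3 libraries was fitted with limma 3.58.1 in R 4.3.3 over the 4 populations (lmFit, contrasts.fit, eBayes with trend), with Benjamini-Hochberg adjustment and a minimum change of 2-fold. With 3 libraries per population, the smallest p that an exact permutation allows is 0.1. On simulated data for APLNR+ against H1 cells with 14840 genes, the fit called 198 of 200 changed genes and 1 unchanged gene. The planted changes were all above 2-fold and the libraries were drawn independently. Recovery of changes near the limit, or with deviations shared between libraries, was thus not tested. Relative depth was estimated from low FPKM values, between 0.0001 and 0.2. Genes with a mean of at least 10 FPKM in a population were described in every library, and the others by range or where called. Collagen members, classes and lists of partner genes were chosen with earlier results of these data known. The list gene MIA2 is not listed under that symbol. Python 3.11.15 was used for the sums and ratios, and promoter letters came from RefSeq windows on GRCh38.p14 with gene strands from GENCODE, which is another build than that of the table.

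Alternatives were a pseudocount of 0.1, no filter or a mean of 5 FPKM, upper quartile, median-of-ratios and quantile scaling, other minimum changes, eBayes without trend, a replicate block, replicates 2 and 3 alone, and each library left out. A filter outside any 1 population and scalings of the collagen sums were added after the data had been seen.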

Additional observations from a re-analysis of the deposited data

How the results depend on the processing

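Counts of called collagen genes were recomputed under 25 alternatives. With no minimum change, the rises and falls in APLNR+ against H1 cells came to 19 and 4, beside 3376 and 5218 of all 14840 genes. The falls in CD31+CD34+ against APLNR+ cells came to 11 of the 31 collagen genes, beside 5619 of 14840. The rises in CD43+ against CD31+CD34+ cells came to 6 of 31, beside 3840 of 14840. Neither of these last shares was above that of all genes. At a minimum of 4-fold, rises and falls came to 7 rises at the first step, 6 and 1 at the second, 1 and 9 at the third, and 5 rises in CD43+ against H1 cells. Over all 14840 genes these were 382 rises, 433 and 442, 186 and 268, and 712 rises. With a mean of at least 5 FPKM required, falls came to 0 at the first step, 3 at the second and 3 in CD43+ against H1 cells, and rises to 1 at the third, since fewer genes were tested. Over the 8622 genes of that fit, these falls were 521, 1663 and 1939, and the rises at the third step were 457. With 1 FPKM required in 3 libraries outside any 1 population, an alternative chosen after seeing the data, 0 fell at the first step and 1 rose at the third, since fewer genes were tested. Over the 12959 genes of that fit, 820 fell at the first step and 619 rose at the third. A pseudocount of 0.1 gave 4 falls at the first step, beside 1850 of all 14840 genes, and the cause was not tested. With replicates 2 and 3 alone, falls at the first step came to 0 and rises at the third to 1, because COL9A1, COL14A1 and COL24A1 no longer reached 1 FPKM in 3 libraries. Over the 13581 genes of that fit, 836 fell at the first step and 663 rose at the third. Leaving out each library in turn gave 11 to 13 rises and 0 to 2 falls at the first step, 10 to 11 and 4 to 5 at the second, 1 to 2 and 15 to 17 at the third, and 12 to 15 and 4 to 6 in CD43+ against H1 cells. These fits held 14366 to 14692 genes. Over all of them, rises and falls were 1061 to 1249 and 888 to 1186 at the first step. They were 1710 to 1952 and 2287 to 2606 at the second, and 620 to 887 and 1183 to 1405 at the third. In CD43+ against H1 cells they were 1822 to 2208 and 2974 to 3463. The falls at the first step went to 0 without any single H1 library, and the rises at the third to 1 without any single CD43+ library.

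Of 80 results of single collagen genes over 10 FPKM, 52 were called, and none of these changed direction. Calls of 3 were lost other than by the 4-fold minimum: COL6A2 at the second step (1.05 on the log2 scale, 0.82 under quantile scaling and 0.94 without APLNR+ replicate 3), COL6A2 at the third (-1.01, and -0.98 under upper quartile scaling) and COL27A1 in CD43+ against H1 cells (-1.15, and -0.97 under quantile scaling). Of the 28 results not called, 9 passed under an alternative other than the minimum change. At the first step these were COL9A3 (0.92, and 1.01 to 1.08 under 3 scalings and without H1 replicate 1 or APLNR+ replicate 2 or 3), COL4A1 (1.01 under quantile scaling), COL27A1 (1.01 without APLNR+ replicate 3), and, with a pseudocount of 0.1, COL2A1 (-1.22) and COL3A1 (1.62). In CD43+ against H1 cells they were COL9A2 (1.04 to 1.44 under 5 alternatives), COL25A1 (1.01 to 1.29 under 6), COL4A6 (1.07 under 2) and COL13A1 (-1.97 with a pseudocount of 0.1). Reversals were limited to values that were not called. COL5A1 at the second step was -0.064 under quantile scaling. COL5A2 in CD43+ against H1 cells was 0.079 under upper quartile, 0.063 under median-of-ratios and 0.14 under quantile scaling, 0.21 with replicates 2 and 3 alone, and -0.14 to 0.13 without a library. COL18A1 was -0.16 to 0.21 without a library at the first step and -0.24 to 0.011 at the third. COL25A1 at the first step was -0.11 with replicates 2 and 3 alone and -0.14 to 0.18 without a library.

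Scaling libraries to equal total FPKM, also chosen after seeing the data, moved the mean collagen sum from 240.3 to 166 FPKM in H1, 974 to 929 in APLNR+, 1450.0 to 1869 in CD31+CD34+ and 564 to 791 in CD43+ cells.

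Quantile scaling moved the median log2 change of all genes in CD43+ against H1 cells from -0.10 to 0.016.

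With replicate number as a block, the counts were the same as without it: 12 rises and 2 falls, 11 and 5, 2 and 16, and 13 and 6. Samples of the same number correlated between -0.02 and 0.43 in their deviations from the population means, with 12 of 18 pairs above 0.1. Pairs of replicate 1 lay between 0.20 and 0.43. Pairs of unlike number lay between -0.40 and 0.29. Those with a replicate 1 library were all negative, which is no separate evidence, since the deviations within a population sum to 0. By the pairs of replicate 1 alone, these libraries deviated partly alike. Whether the numbers pair samples was not tested, and the main fit took no pairs. The depth of FPKM values is unknown beyond the relative estimate.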
